A study of Mus musculus with 6 samples.

Results

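The interferon regulatory factors (IRFs) are transcription factors encoded by the Irf genes, and 8 of them, Irf1, Irf2, Irf3, Irf4, Irf5, Irf7, Irf8 and Irf9, were examined here in mouse macrophages treated with an antibody against CSF1R. A gene was taken as a member by its name, and its value is that of the probe set annotated to that symbol alone with the highest mean over the 6 arrays. Of the 8 genes, 7 had such a probe set, out of 22180 genes measured in all. The only probe set listed for Irf5 is annotated to Irf5 and Tnpo3 together, so no value is given for Irf5. The 7 members described are therefore Irf1, Irf2, Irf3, Irf4, Irf7, Irf8 and Irf9.

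Macrophages were derived from the marrow of 3 mice of the strain C57BL/KaLwRij, in which 5TGM1 myeloma grows, by culture with M-CSF for 7 days. All of them shared a night in culture with mouse myeloma cells, the luciferase-bearing line 5TGM1-luc. One set then had 0.5 nM anti-mouse CSF1R antibody for 3 days (3 arrays), and the controls had an IgG antibody for the same time (3 arrays). Myeloma cells were removed with 4 washes before RNA was taken, and neither the age of the mice nor their tie to the replicates was found in the labels. The p-values therefore rest on the spread among arrays of a group, and that spread may be only technical. With so few arrays the precision of every value is limited. Values are log2 of the deposited intensity, so a difference of 1 is a 2-fold difference, and levels of different genes are not compared because their probes differ.

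IRF proteins share an N-terminal DNA-binding domain that reads GAAA repeats, the core of the interferon-stimulated response element (ISRE). IRF3 and IRF7 are switched on by phosphorylation downstream of nucleic acid sensors and drive interferon genes. IRF9 is the DNA-binding part of ISGF3, the complex that answers type I interferon. IRF1 is the main family activator of the interferon gamma response, IRF2 competes with it at shared sites, IRF8 acts with PU.1 in macrophage development, and IRF4 is used by plasma cells, by myeloma cells and by macrophages exposed to IL-4. Interferon gamma also acts through another element, the gamma-activated site (GAS).

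The promoter stretches below are shown because they hold these elements in 3 of the 5 members that, as given further on, rose with the antibody. Windows from 250 bases before to 50 bases after each start site were taken from RefSeq (GRCm38.p6). The windows of all 8 genes were searched on both strands, 11 windows in all. The letters searched were GAAANNGAAA for the ISRE, TTCNNNGAA for the GAS and GGAANNGAAA for the composite site of ETS factors such as PU.1 with IRFs. Capitals mark the matches, and each stretch runs 5′ to 3′ on the strand of the gene.
Irf1, chr11:53769904-53769952, plus strand: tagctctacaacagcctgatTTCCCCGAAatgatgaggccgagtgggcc
Irf2, chr8:46739495-46739549, plus strand: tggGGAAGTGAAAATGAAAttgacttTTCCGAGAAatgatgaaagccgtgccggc
Irf8, chr8:120736167-120736233, plus strand: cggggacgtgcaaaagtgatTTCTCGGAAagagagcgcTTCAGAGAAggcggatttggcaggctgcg
The GAS letters were present in 3 of the 8 genes (Irf1, Irf2 and Irf8), against 9.55% of the 27025 genes with such a window. Irf1 had 1 match, which starts 90 bases before the start site, and Irf8 had 2, starting 171 and 153 bases before it. Irf2 was the 1 gene of the 8 with the ISRE letters, against 3.99% of genes, and with the composite letters, against 3.16%, and these matches overlap in the first run of capitals. None of the 3 sets of letters was in the windows of Irf3, Irf4, Irf5, Irf7 or Irf9, of which Irf7 and Irf9 also rose. A match describes letters and is not a measured binding site.

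After the CSF1R antibody, 5 of the 7 members were higher than with IgG (Irf1, Irf2, Irf7, Irf8 and Irf9), Irf4 was lower, and Irf3 did not pass the test. Rises ran from 1.57-fold for Irf2 to 3.33-fold for the brighter Irf8 probe set, and Irf4 stood at 0.752 of its IgG level. Of all genes, 28.5% were called at limma adjusted p under 0.05, with 12.5% higher and 16.0% lower. The median log2 change was 0.84 over the 7 members and -0.02 over all genes, and the median size of change over all genes was 0.13. All 7 members lay above a guide to background in both groups, the level of 4.92 under which 95% of 1390 olfactory and vomeronasal receptor genes fell.

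**Figure D1:**
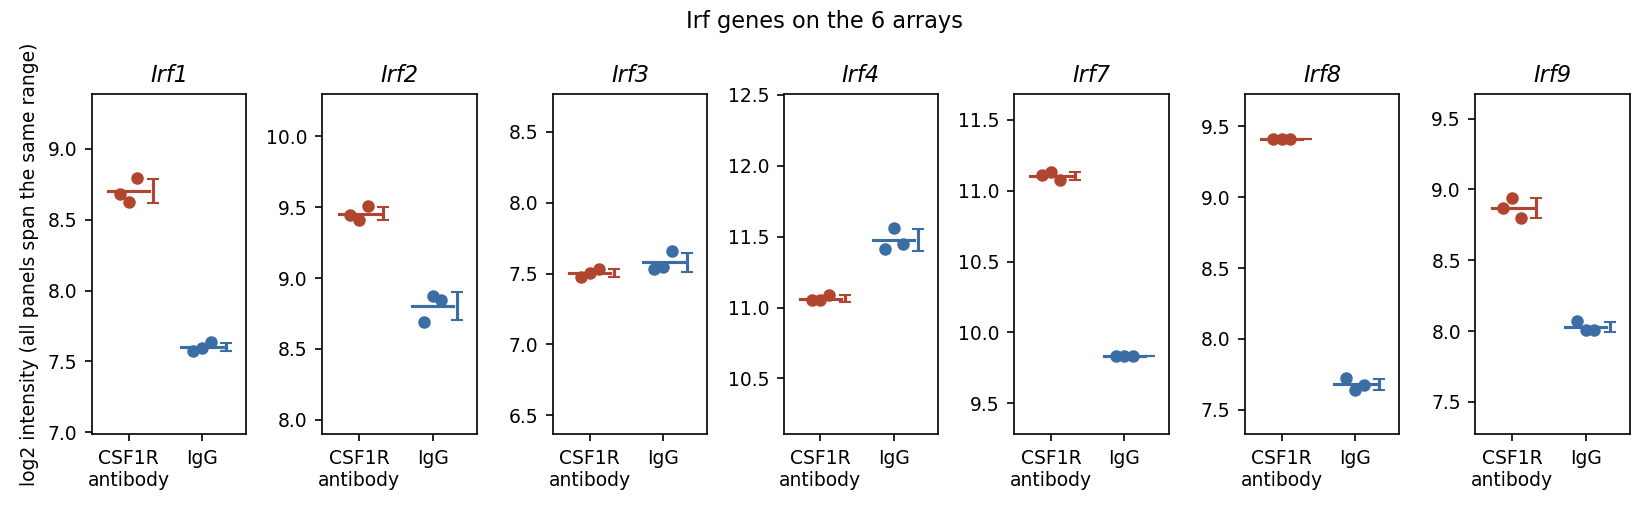
Log2 intensity of the 7 members on the 3 CSF1R antibody arrays (red, left in each panel) and the 3 IgG arrays (blue, right). Points are arrays, horizontal lines are means, bars are SD, and every panel spans an equal range of log2 units. Points of the 2 groups overlap only for Irf3, the antibody points lie below the IgG points for Irf4, and they lie above for the other 5.

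Irf8, the myeloid lineage factor, had the largest change by its brighter probe set, but not by the mean of its probe sets. By the brighter one it measured 9.41 on each of the 3 antibody arrays, against 7.72, 7.64 and 7.67 on the IgG arrays. The 3 antibody values were equal to 6 decimals, as they were for 540 genes, so their SD of 0 does not describe the precision of the measurement. The SE, interval and p-value that follow draw on that SD and may overstate the precision. The rise was 1.73 (SE 0.05; 95% interval 1.63 to 1.84; limma adjusted p = 8.1e-06), or 3.33-fold, and 84 of the 22180 genes had a larger log2 change upwards. A second probe set annotated to Irf8 had a much lower signal, at 5.60 ± 0.07 with the antibody and 5.06 ± 0.20 with IgG (SD, n = 3 each). It rose by 0.53 (SE 0.10; limma adjusted p = 0.0094 when all probe sets were tested). Both probe sets were thus higher with the antibody, but their sizes disagreed, and the mean of both gave a rise of 1.13, below the 1.27 of Irf7. Arrays alone do not show which size is nearer to that of the transcript.

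Irf7, the interferon-induced activator of interferon alpha genes, also rose. Its antibody arrays read 11.11, 11.13 and 11.07, against 9.83 on all 3 IgG arrays. The IgG values were equal to 6 decimals, which was the case for 324 genes, so the SE, interval and p-value may overstate the precision here too. The lowest antibody array lay 1.24 above the IgG value, and the rise was 1.27 (SE 0.04; 95% interval 1.17 to 1.38; limma adjusted p = 1.1e-05), or 2.42-fold. A larger upward change was seen in 1.53% of genes.

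Irf1, which is itself induced by interferon gamma, stood at 8.68, 8.63 and 8.80 with the antibody and at 7.58, 7.59 and 7.63 with IgG. The groups were separated by 0.99, several times the 0.17 spanned by the antibody arrays. The rise was 1.10 (SE 0.06; 95% interval 0.96 to 1.24; limma adjusted p = 3.4e-05), or 2.15-fold.

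Irf9, the DNA-binding subunit of ISGF3, read 8.87, 8.94 and 8.80 on antibody arrays and 8.07, 8.01 and 8.01 on IgG arrays. Every antibody array was above every IgG array, by 0.73 at the closest. The rise was 0.84 (SE 0.05; 95% interval 0.71 to 0.97; limma adjusted p = 8.1e-05), or 1.79-fold.

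Irf2, known as a competitor of IRF1 and a repressor at many interferon response elements, rose least of the 5. Its values were 9.45, 9.41 and 9.51 with the antibody and 8.69, 8.87 and 8.85 with IgG. IgG replicate 1 was the low array of its group, and the groups did not overlap. The rise was 0.65 (SE 0.06; 95% interval 0.50 to 0.81; limma adjusted p = 0.00050), or 1.57-fold. The activator Irf1 and its competitor Irf2 were thus both higher with the antibody.

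Irf3, made in most cells and controlled mainly at the level of its protein, measured 7.48, 7.50 and 7.53 with the antibody and 7.53, 7.55 and 7.66 with IgG. The highest antibody array and the lowest IgG array had the same value, and the groups met there. The difference was -0.07 (SE 0.05; limma adjusted p = 0.38; 0.02 after cyclic loess scaling, where the sign turned). Its 95% interval, from -0.20 to 0.05, corresponds to 0.870 to 1.04 of the IgG level, so a change as large as that of Irf2 lay outside it.

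Irf4 read 11.05, 11.05 and 11.09 with the antibody, against 11.41, 11.56 and 11.45 with IgG. The groups lay apart by 0.32, with antibody replicates 1 and 2 at the same value. Irf4 fell by 0.41 on the log2 scale (SE 0.06; 95% interval of the change -0.55 to -0.28; limma adjusted p = 0.0019), and 5.93% of genes had a larger downward change. With cyclic loess scaling its change was -0.30 (limma adjusted p = 0.0058).

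The groups did not overlap for 6 of the 7 members, with the antibody above in 5 and below in 1. Over all genes this held for 39.3%, with the antibody above in 16.6% and below in 22.7%. With Irf8 taken from its brighter probe set, the members ran in order of change Irf8, Irf7, Irf1, Irf9, Irf2, Irf3 and Irf4. The log ratio of each neighbouring pair within an array was compared between the groups, over 6 pairs. The order came from these same arrays, so it set the sign of each difference, and the p-values are descriptive only. The change of Irf8 was 0.46 above that of Irf7 by the brighter probe set, an order that turned with the mean of its probe sets (1.13 for Irf8, 1.27 for Irf7) and with its second probe set (0.53). Irf7 was 0.17 above Irf1, Irf1 was 0.26 above Irf9, Irf2 was 0.73 above Irf3 and Irf3 was 0.34 above Irf4. For these 5 pairs the ratios of the groups did not overlap (two-sided exact permutation p = 0.10 each, the smallest that 3 against 3 arrays can give; 0.12 after Benjamini-Hochberg adjustment). The ratios of Irf9 to Irf2 overlapped, with a difference of 0.19 (two-sided exact permutation p = 0.20; adjusted 0.20). None of the 6 pairs could pass a threshold of 0.05 in this design, so the comparison does not settle which neighbours differed.

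**Figure D2:**
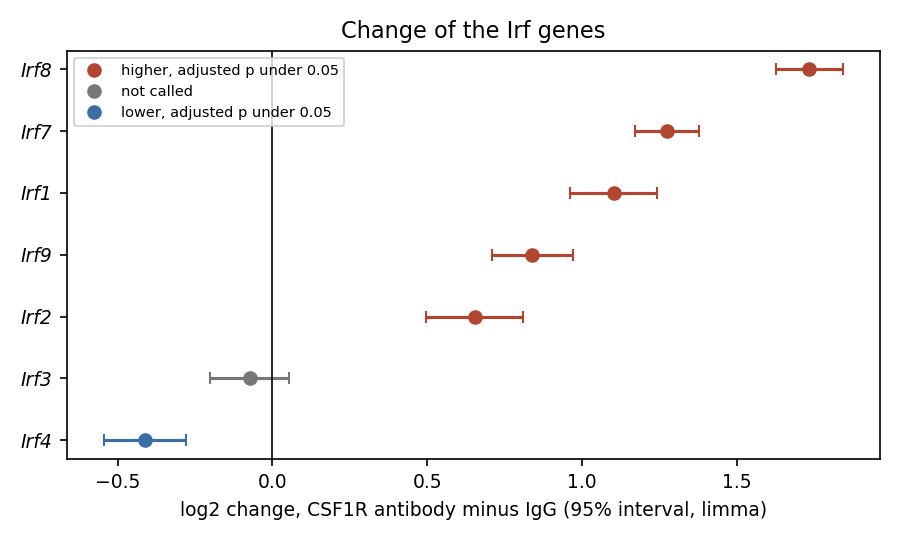
Log2 change of each member, CSF1R antibody minus IgG, with limma's 95% interval over 3 and 3 arrays. Red points passed the test as higher, the blue point as lower, and grey did not pass. The interval of Irf8 (1.63 to 1.84), drawn for its brighter probe set, lies above the others, while its second probe set (0.28 to 0.79) is not drawn. That of Irf3 crosses 0, and that of Irf4 (-0.55 to -0.28) lies below 0. For Irf7 and Irf8 the interval draws on a group of equal values and may be too narrow.

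Genes with the most similar profile over the 6 arrays were sought by the root mean square distance of log2 values centred on the IgG mean. The nearest to Irf8 were Ndrg1 (distance 0.024, a rise of 1.71), Ptafr, the receptor for platelet-activating factor (0.039, a rise of 1.78), and Il10ra, the ligand-binding chain of the IL-10 receptor (0.039, a rise of 1.78). For Irf4 they were the centriole gene Poc5 (distance 0.014, a change of -0.41), Ran, the GTPase of nuclear transport (0.017, a change of -0.42), and Usp53 (0.018, a change of -0.42). With 2 groups of 3 arrays this likeness is mostly that of the size of change.

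Markers of more than 1 kind of cell lay above the background guide on these arrays, but the cell make-up of the samples was not measured. In bulk RNA, fewer cells of a type and less RNA per cell cannot be told apart. All 8 measured macrophage markers were far above the background guide and rose, by 0.33 to 1.74 with a median of 1.18. Their summed intensity was 27036 to 27909 with the antibody and 15301 to 16010 with IgG. Such a sum, here and below, is set mostly by the brightest probe sets of a list. It does not measure a share of cells. Cd14 (1.74, SE 0.07), the F4/80 gene Adgre1 (1.27, SE 0.06), Fcgr1 (1.27, SE 0.05) and Mertk (1.24, SE 0.05) rose most. Irf8 had a larger rise than 7 of these 8 markers by its brighter probe set, than 4 by the mean of its probe sets and than 1 by its second probe set. The rise of Irf7 was level with those of Adgre1 and Fcgr1 within their errors, and Irf1 rose more than 3 of the 8, Irf9 more than 2 and Irf2 more than 1. The part that a change in the share of macrophage RNA has in the 5 rises was not tested.

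Of 14 measured plasma cell and myeloma markers, 8 fell and 1 rose, while of all genes 16.0% fell and 12.5% rose. The median change of these markers was -0.29, beside the -0.41 of Irf4. Their summed intensity was 19349 to 21190 with the antibody and 22335 to 22879 with IgG. The brightest probe set in it was that of Ighm, which was not called (log2 means 12.74 with the antibody, 12.88 with IgG). Eaf2 (-0.68, SE 0.04), the B lineage coactivator gene Pou2af1 (-0.63, SE 0.05) and the receptor gene Tnfrsf13b (-0.49, SE 0.05) fell, while Slamf7, also expressed by macrophages, rose by 0.55 (SE 0.05). Irf4 lay within this list, with 5 markers that changed further down and 9 above it. Prdm1 and Xbp1, which act beside IRF4 in plasma cells and were chosen for mention with their values known, changed by -0.28 (SE 0.05) and -0.30 (SE 0.05). On the antibody arrays their SDs were 0 and 0.001, so these SEs may overstate the precision. Prdm1 did not pass with cyclic loess scaling (change -0.16; limma adjusted p = 0.051). Whether Irf4 came from macrophages or from myeloma cells was not tested.

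Counts for the markers of other cells stand beside 12.5% of all genes called higher and 16.0% called lower. Of 9 stromal markers, 6 fell and 1 rose, with a median of -0.38, led by the smooth muscle actin gene Acta2 (-1.20, SE 0.05) and Postn (-1.08, SE 0.04). Of these, Col1a1 changed by -0.38 (SE 0.06) and Col1a2 by -0.43 (SE 0.08), which did not pass with the mean of its probe sets (limma adjusted p = 0.094). Among the 6, Col3a1 kept its call in 8 of 17 alternatives, losing it when any 1 of the 6 arrays was left out. Cxcl12 kept its call in 14, losing it without IgG replicate 1, 2 or 3, and the 1 that rose, Dcn, was below the guide in both groups; these were mentioned with their values known. The stromal sum was 1060 to 1110 with the antibody and 1990 to 2044 with IgG. Its brightest probe set was that of Acta2 (log2 means 9.11 with the antibody, 10.31 with IgG). Of 7 dendritic cell markers, for which IRF8 and IRF4 are lineage factors, none rose and Itgax (-0.55, SE 0.07) fell, and 3, Flt3, Siglech and Xcr1, were under the guide with either antibody. The dendritic cell sum was 865 to 985 with the antibody and 959 to 982 with IgG. Cd209a had its brightest probe set (log2 means 9.42 with the antibody, 9.36 with IgG) and was not called. Among 4 B cell markers Cd22 rose (0.54, SE 0.05) and Ebf1 fell (-0.46, SE 0.08). Of the 6 T and NK cell genes Cd4, also expressed by some macrophages, rose by 2.00 (SE 0.10) and the other 5 lay below the guide. None of 6 granulocyte genes was called.

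**Figure D3:**
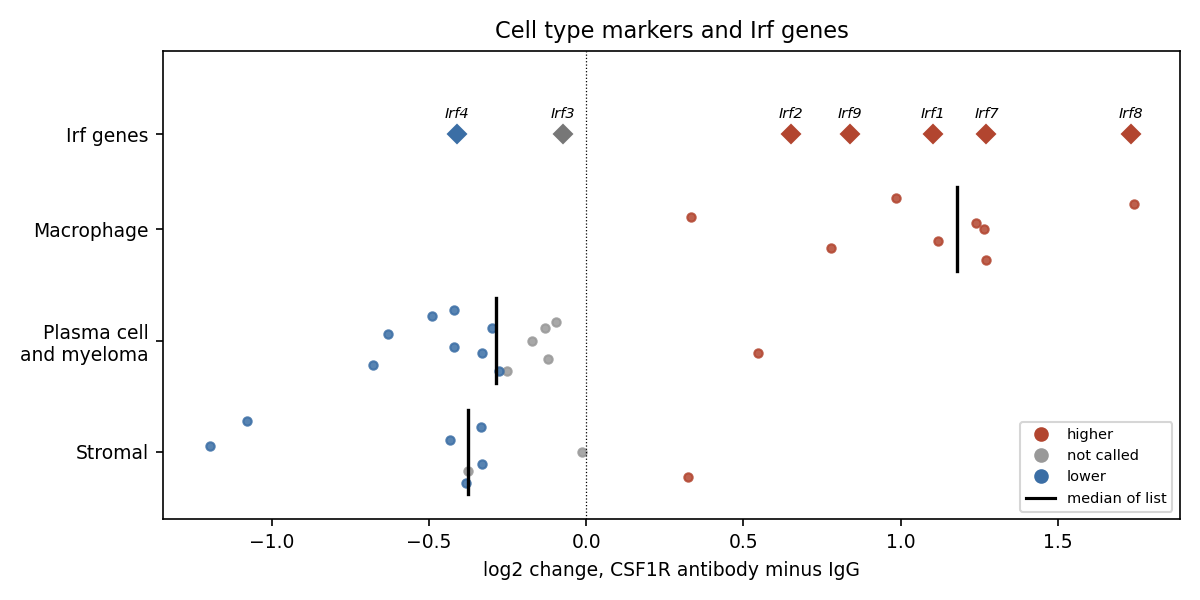
Log2 change, CSF1R antibody minus IgG, of the 7 Irf members (diamonds) and of single marker genes (points) of macrophages, plasma cells with myeloma cells, and stromal cells. Colours give the test result and black bars the median of each list, which was 1.18, -0.29 and -0.38. The 5 Irf genes that rose lie within the range of the macrophage markers and Irf4 lies within that of the plasma cell markers.

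The genes above the IRFs in the pathway rose in large part. Counts in this list and the lists below stand beside 12.5% of all genes called higher and 16.0% called lower. Of 19 measured sensors, adaptors and kinases that activate IRF proteins, 14 rose and none fell, with a median of 1.37 against -0.02 over all genes. The largest rises were in Ticam2, the adaptor TRAM of TLR4 (8.26 ± 0.10 with the antibody, 6.29 ± 0.21 with IgG; SD, n = 3 each; a rise of 1.96, SE 0.12), the endosomal DNA receptor gene Tlr9 (1.90, SE 0.10), the RNA receptor gene Tlr7 (1.81, SE 0.09) and Ifih1, the RNA sensor MDA5 (1.67, SE 0.09). The kinases that phosphorylate IRF3 and IRF7 were taken after their values were seen: Ikbke rose by 1.48 (SE 0.13) and Tbk1 by 0.21 (SE 0.04). The call of Tbk1 was lost with the replicate number as a block (limma adjusted p = 0.052). The 14 also include Sting1, mentioned with its values known, which rose by 0.17 (SE 0.05) and kept its call in 8 of 17 alternatives, losing it when any 1 of the 6 arrays was left out. These genes stood beside the macrophage marker median of 1.18.

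Of 24 measured interferons, receptors and receptor kinases, 5 rose and 1 fell, with a median of 0.06. Over all genes 12.5% were called higher and 16.0% lower, so these counts do not set the list apart. Interferon genes, the direct targets of IRF3 and IRF7, often gave little signal, as 10 of the 24, all of them interferons, lay below the guide in both groups. Ifnb1, looked at after its values were seen, was at 3.05 ± 0.18 with the antibody and 2.88 ± 0.12 with IgG (SD, n = 3 each; limma adjusted p = 0.31). At that signal the arrays do not show whether it changed. Ifna7 was at 5.60 ± 0.21 with the antibody and 5.08 ± 0.03 with IgG (SD, n = 3 each) and rose by 0.52 (SE 0.10), but the interferon alpha genes are near copies of each other and probes may not tell them apart. The 1 gene that fell, Ifnab, named after its values were seen, was below the guide in both groups. Ifng, named after its values were seen, lay above the guide in both groups and was not called. It was at 5.16 ± 0.11 with the antibody and 5.32 ± 0.12 with IgG (SD, n = 3 each; limma adjusted p = 0.24). On the receiving side, the kinase gene Jak1 rose by 1.33 (SE 0.04), Ifngr1 by 1.06 (SE 0.06) and Ifngr2 by 0.72 (SE 0.05).

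Partners of IRF proteins went both ways, with 8 of 16 higher, 3 lower and a median of 0.12. Among all genes, 12.5% were called higher and 16.0% lower. Irf2bp2, a corepressor bound by IRF2, stood at 9.50 ± 0.13 with the antibody and 8.14 ± 0.02 with IgG (SD, n = 3 each), a rise of 1.37 (SE 0.07), but with the mean of its probe sets the rise was 0.65. Stat2, the transactivating subunit of ISGF3, rose by 1.24 (SE 0.05), Bcl6, a repressor of inflammatory genes, by 1.07 (SE 0.05) and Batf2 by 0.92 (SE 0.09). Spi1, the gene of PU.1 and partner of IRF8 and IRF4, was taken after its values were seen and rose by 0.88 (SE 0.06). The 3 that fell, also named after their values were seen, were the lymphoid factor genes Ikzf3 (-0.63, SE 0.05) and Tcf3 (-0.51, SE 0.06) and Etv6 (-0.19, SE 0.05). The fall of Etv6 was not called with cyclic loess scaling (limma adjusted p = 0.47), with a replicate block (0.11) or without any 1 of antibody replicates 1 to 3 or IgG replicates 1 and 3 (0.0503 to 0.106).

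Downstream, 16 of 18 measured targets of ISGF3 rose and none fell, with a median of 1.34. Cxcl10, a T cell attractant, was at 9.33 ± 0.12 with the antibody and 6.96 ± 0.02 with IgG (SD, n = 3 each), a rise of 2.37 (SE 0.07). Ifit1 (1.85, SE 0.05), Cmpk2 (1.75, SE 0.05) and the antiviral GTPase gene Mx1 (1.73, SE 0.13) followed.

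Genes of the interferon gamma response tied to IRF1 were less uniform, as 11 of 19 rose and none fell, with a median of 0.38. The GTPase genes Gbp5 (8.15 ± 0.16 with the antibody, 5.47 ± 0.11 with IgG; SD, n = 3 each; a rise of 2.67, SE 0.10), Iigp1 (2.55, SE 0.09), Gbp3 (1.95, SE 0.06) and Irgm1 (1.21, SE 0.08) led them. Others of the list did not pass, among them the immunoproteasome genes Psmb8 (10.55 ± 0.03 with the antibody, 10.63 ± 0.04 with IgG) and Psmb9 (9.09 ± 0.09 with the antibody, 9.10 ± 0.09 with IgG) and the class I regulator Nlrc5 (7.84 ± 0.22 with the antibody, 7.88 ± 0.02 with IgG), which were picked out after their values were seen. The 11 include Gbp6, mentioned with its values known, which was below the guide in both groups (3.04 ± 0.18 with the antibody, 2.66 ± 0.14 with IgG) and kept its call in 7 of the 14 alternatives that tested it, losing it without antibody replicate 1 or 3 or IgG replicate 1 or 2. The macrophage marker median of 1.18 stood beside this list and the ISGF3 list.

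Among 9 measured myeloid genes tied to IRF8 and PU.1, 7 rose and none fell, with a median of 0.38. Irf8 itself rose by 1.73 by its brighter probe set, 1.13 by the mean of its probe sets and 0.53 by its second. Clec4e, the glycolipid receptor Mincle, rose by 2.74 (SE 0.07), the cytokine gene Il18 by 1.59 (SE 0.08), Aif1 by 1.28 (SE 0.07) and Cst3, for cystatin C, by 0.61 (SE 0.06). Of 10 genes tied to IRF5, which itself has no value here, 6 rose and none fell, with a median of 0.54. The cytokine gene Il1b rose by 3.35 (SE 0.10), Cxcl10 as above, Ccl5 by 1.98 (SE 0.10) and Ccl4 by 0.91 (SE 0.05). The other 4, Il6, Il12a, Il12b and Il23a, were under the background guide with either antibody. They were picked out after their values were seen.

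Negative regulators of interferon and IRF signalling rose in 6 of 13 cases and fell in 2, with a median of 0.12. Among all genes, 12.5% were called higher and 16.0% lower. The deconjugase gene Usp18, which restrains the type I interferon receptor, rose by 1.46 (SE 0.06), the ubiquitin-like Isg15 by 1.40 (SE 0.11), Socs3 by 1.26 (SE 0.08) and Trim21, a ubiquitin ligase gene, by 1.13 (SE 0.09). Usp18 and Isg15 are also in the list of ISGF3 targets and were counted among its rises. The 2 that fell, the phosphatase genes Ptpn2 (-0.34, SE 0.04) and Ptpn11 (-0.29, SE 0.05), were named after their values were seen. With cyclic loess scaling both were smaller, at -0.23 for Ptpn2 and -0.18 for Ptpn11.

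**Figure D4:**
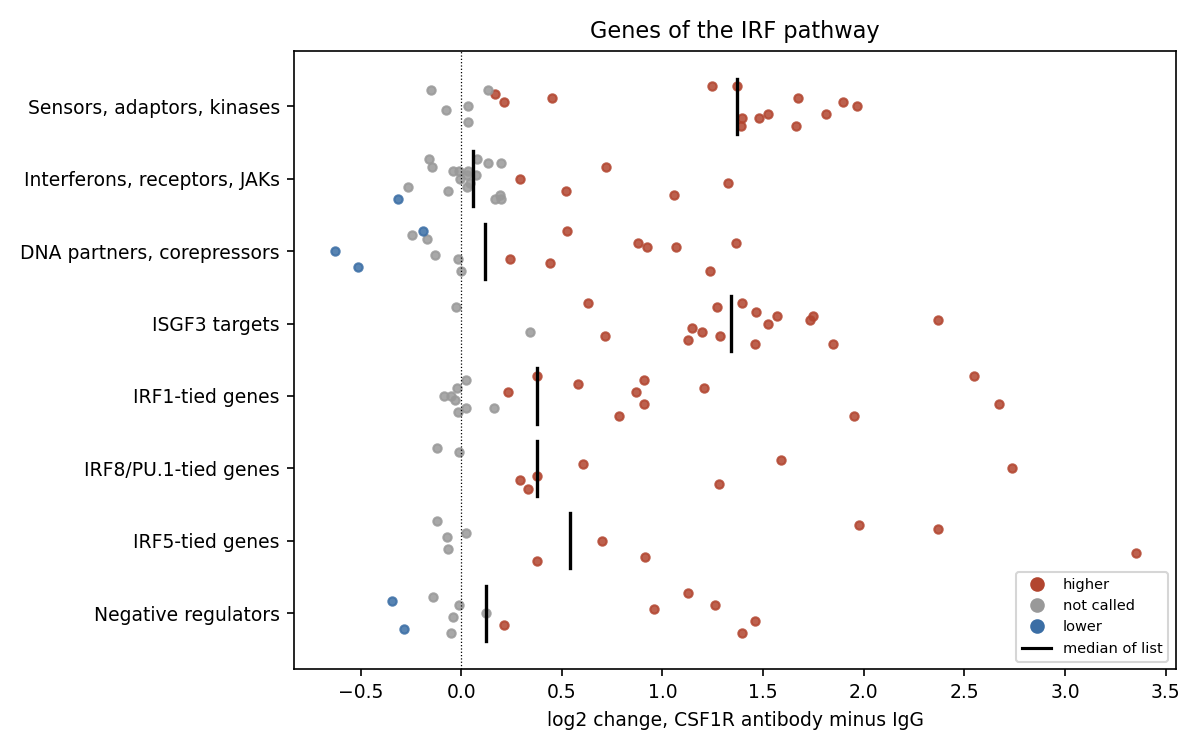
Log2 change, CSF1R antibody minus IgG, of each measured gene in 8 lists of the IRF pathway. Points are genes, red where higher and blue where lower at limma adjusted p under 0.05, and black bars are list medians, which lie highest for the sensors (1.37) and the ISGF3 targets (1.34) and lowest for the interferons and receptors (0.06).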

How the data were processed

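RNA of the 6 samples was labelled with the WT PLUS kit for GeneChip Mouse Gene 2.0 ST arrays, per the labels' protocols. The deposited values are linear probe set intensities, and the submitters' processing notes name RMA and limma without versions. RMA evens out the distributions of arrays, so a shift of most genes would not be seen. Neither the genome build nor the level of probe summary is given in the sources used here. Of 41345 probe sets, 23521 had 1 gene symbol in the platform annotation, 1814 several and 16010 none, and only the first were used. Of 22180 genes, 1082 had several probe sets, and the one with the highest mean was taken. No filter was set.

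Log2 values were fitted with limma 3.58.1 in R 4.3.3 (lmFit, eBayes) over all genes, with Benjamini-Hochberg adjustment and a threshold of 0.05. SE is limma's moderated standard error. Median log2 signal was 4.88 to 4.95 on the arrays, and correlations across probe sets were 0.992 to 0.993 within groups and 0.984 to 0.985 between them. On simulated data of 22180 genes with 200 changed, 56.4% of genes changed by 0.5 and 88.0% of those changed by 1 were found, and 4.25% of calls were false. In 5 such runs no sign was wrong. The simulation drew independent noise without equal values and changed a far smaller share of genes than the 28.5% called in the data. Its percentages therefore need not hold for these arrays.

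Members, lists and tests were chosen with earlier results of these data known, and the lists come from textbook knowledge. All members were named, and from each list up to 4 called genes with the largest change, or the 2 with the smallest p. The alternatives tried were array weights, robust variances, an intensity trend, median centring, cyclic loess, a filter at the 25th or the 50th percentile of signal, the mean of probe sets, every probe set, a threshold of 0.01, a replicate block, and each array left out. A filter at the receptor guide was added after the data were seen. Figures used matplotlib 3.10.9 in Python 3.11.15.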

Additional observations from a re-analysis of the deposited data

How the results depend on the processing

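The counts of 5 members higher and 1 lower were the same under all 18 alternatives, and each of these 6 members kept its direction and its call in every one, including each array left out. Over the settings other than the threshold of 0.01, changes ran from 1.13 (mean of probe sets) to 1.84 for Irf8, 1.26 to 1.39 for Irf7 and 1.05 to 1.21 for Irf1. They ran from 0.80 to 0.95 for Irf9, 0.60 to 0.77 for Irf2 and -0.44 to -0.30 for Irf4. The highest limma adjusted p of Irf4 was 0.011, with the replicate block. With every probe set, only the one with the smallest adjusted p was read for a gene. The range of Irf8 thus leaves out its second probe set, which rose by 0.53. Irf3 turned sign with cyclic loess (0.017; limma adjusted p = 0.86; 0.22 to 0.86 over all settings). At the threshold of 0.01, 2232 genes were lower in place of 3548, and 2123 were higher in place of 2766. With cyclic loess 57.7% of called genes were higher in place of 43.8% (3334 higher, 2444 lower). Counts of list members moved by over 1.5 times in 19 of 540 cases, in lists with few calls in that direction. Deviations of same-numbered arrays correlated at 0.03, -0.05 and 0.00. This does not settle whether the arrays were paired, as the tie of the mice to the replicates is not known. The replicate block left 2569 genes higher and 2980 lower. Without scanner files, no measured background sets a limit on low signals.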
